A study of Mus musculus with 10 samples.

Results

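Chemokine ligands are small secreted proteins that direct leukocytes through chemokine receptors. The genes described here are Ccl22, Ccl17, Ccl3, Ccl4, Ccl5, Ccl6, Ccl9, Cxcl9, Cxcl10 and Cxcl16, 10 of the 30205 mouse genes to which transcript counts were summed. They were chosen by their CPM in these same 10 libraries, so their levels and fold changes are given as a description with no test. All 10 passed the filter on low counts that left 15583 genes, and tests are given only for genes outside the list. Expression is in CPM, a library's counts scaled to a common total after normalization between libraries.

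CCL22 and CCL17 are the ligands of CCR4, a receptor of regulatory and type 2 helper T cells, and are best known as products of activated dendritic cells and macrophages, with CCL22 also made by activated B cells. CCL3, CCL4 and CCL5 are inflammatory chemokines that attract T cells and monocytes, and CCL3 and CCL5 bind CCR1. CCL6 and CCL9 are rodent chemokines of myeloid cells that act through CCR1. CXCL9 and CXCL10 are interferon-induced ligands of CXCR3, and CXCL16 is a membrane-bound ligand of CXCR6 that is shed by ADAM proteases. NF-kB, which the kinase NIK activates, is a known regulator of many of these genes.

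The study sequenced total RNA of FACS-sorted C57BL/6 B lineage cells, 5 groups with 2 libraries each, in a design that crosses activation of NF-kB with that of Notch. Control libraries were of wild-type mice and carried neither allele nor Cre. NF-kB-activated cells carried Rosa-NIKdeltaT3flSTOP and CD19Cre, Notch-activated cells Rosa-Notch2ICN and CD19Cre, and doubly activated cells both Rosa alleles and CD19Cre. The lymph node was the source of these cells, labelled as marginal zone precursors in the control, NF-kB and double groups and as marginal zone B cells in the Notch group. Lymphoma cells came from lymphoma tissue and carried both Rosa alleles and CD19Cre. CD19Cre is active in B lineage cells, so no allele was switched on by design in other cells. Ages were not given in the sources used here. Whether 2 libraries of a group are from different mice is not stated either. The p-values then reflect the spread of libraries that may be technical, except in control, whose libraries differed in a Y-linked gene.

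Depth was 16380889 to 23102081 estimated counts a library. Map3k14, the gene of NIK, averaged 116 CPM in control, 219 with NF-kB activation, 34.9 in the Notch group, 250 with both alleles and 153 in lymphoma. Notch2 averaged 671 CPM in control, 784 with NF-kB activation, 281 in the Notch group, 728 with both alleles and 167 in lymphoma. The Notch and lymphoma groups, which carry the Notch2ICN allele, were thus below control, and the doubly activated group was above control but below the NF-kB one. This sum over Notch2 transcripts does not separate the Rosa allele from the endogenous gene. The Notch target Heyl was higher in all 3, at 47.5 CPM in the Notch group, 24.45 with both alleles and 41.4 in lymphoma. It was at 0.406 CPM in control and 2.54 with NF-kB activation. Of 7 listed Notch targets, 5 rose in the Notch group against control (edgeR), beside 63.7% of all genes called. With both alleles 2 rose and 1, Nrarp, fell, beside 19.8%. In lymphoma, not tested against control, Dtx1 and Notch3 averaged 919 and 6.28 CPM against 700 and 0.0272 CPM in control. Hes1, Hes5 and Nrarp averaged 21.4, 6.64 and 1.255 CPM there, against 65.8, 14.3 and 6.34 CPM. The Notch group is called Notch-labelled below, and "doubly activated" and "lymphoma" likewise name libraries as they are labelled. The Notch-labelled and lymphoma libraries stood apart from the rest. A single heavy chain V segment held 92.9% and 93.9% of V segment counts in the Notch-labelled libraries (Ighv1-55; Wilson 95% intervals 92.3% to 93.5% and 93.3% to 94.5%, counting error only). Another, Ighv1-11, held 92.5% and 92.3% in the lymphoma libraries. In the other 6 libraries the leading segment held at most 7.395%. Both lymphoma libraries therefore carried the same leading segment, and it was not stated whether they came from one tumour. The control libraries differed from each other in the Y-linked gene Ddx3y, named after its values were seen, at 59.8 and 0.653 CPM, which was 2.40 and 1.88 CPM in Notch-labelled libraries and 109.6 to 186.6 CPM in the others. The control libraries were therefore not repeats of the same RNA sample. Sex may also differ between groups, which cannot be told apart from genotype. The sum of 10 B cell markers was 3666 to 3918 CPM in Notch-labelled libraries, 5890 to 6137 CPM in lymphoma and 10780 to 13150 CPM in the rest. Past an adjusted p of 0.05 (edgeR), 8.72% of the genes were higher and 6.6% lower in NF-kB-activated than in control cells, 34.2% and 29.5% in Notch-labelled cells, and 10.5% and 9.3% in doubly activated cells. Doubly activated against NF-kB-activated cells gave 6.62% and 7.28%, which is 13.9% in all, and lymphoma against doubly activated cells 26.1% and 25.2%. In such bulk samples, fewer cells of a type and less RNA per cell cannot be told apart.

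Ccl22 was the highest of the 10 genes in lymphoma and near 0 in the other groups. It lies on chromosome 8 at chr8:94745590-94751699 on the plus strand of GRCm38 (mm10), 58753 bases before Ccl17 at chr8:94810453-94812036 on the same strand, in the gene models of GENCODE M21. The 250 bases before the RefSeq start of both genes are shown because they are neighbours that were both highest in lymphoma and next highest in NF-kB-activated libraries. Sequences are from RefSeq for GRCm38.p6, 5′ to 3′ on the strand of the gene, at chr8:94745434-94745683 for Ccl22 and chr8:94810203-94810452 for Ccl17. The GENCODE start of Ccl22 lies inside its window. Capitals mark GGGACTT in Ccl22, letters with which many kappaB sites begin, and in Ccl17 the reverse complement of TGGGAA, the core of sites of RBPJ, the DNA-binding partner of Notch.
Ccl22: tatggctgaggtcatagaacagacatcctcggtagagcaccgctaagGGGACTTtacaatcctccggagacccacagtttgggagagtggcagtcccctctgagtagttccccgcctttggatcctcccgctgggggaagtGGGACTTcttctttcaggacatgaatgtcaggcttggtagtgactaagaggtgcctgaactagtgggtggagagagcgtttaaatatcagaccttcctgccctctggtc
Ccl17: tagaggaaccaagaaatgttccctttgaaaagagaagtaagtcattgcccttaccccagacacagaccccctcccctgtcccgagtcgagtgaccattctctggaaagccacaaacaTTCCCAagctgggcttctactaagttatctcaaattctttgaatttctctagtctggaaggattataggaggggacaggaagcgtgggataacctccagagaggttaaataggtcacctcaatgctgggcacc

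RefSeq promoters were found for 7 of the 10 genes, and those of Ccl4, Ccl5 and Cxcl16 were not used here. On either strand, GGGACTT occurred in 4.65% of 32851 promoters of this length, TGGGAA in 21.6% and the full kappaB consensus in 7.25%. GGGACTT was chosen after the sequence of Ccl22 was seen. In the Ccl22 window it stood at -203 to -197 and -109 to -103 from the start, and in the Ccl17 window TGGGAA stood on the minus strand at -133 to -128. The full kappaB consensus was found in the windows of Cxcl10 and Ccl9. A match describes letters and not a bound site.

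In the lymphoma libraries Ccl22 reached 340 and 286 CPM, from 7356 and 5859 estimated counts. It was at 0.278 and 0.0654 CPM in the doubly activated libraries, which carry the same alleles, at 0.246 and 0.109 CPM in control, 1.36 and 1.47 CPM with NF-kB activation and 0.300 and 0.396 CPM for Notch-labelled libraries. The lymphoma libraries thus lay far above the 8 others, the NF-kB-activated libraries stood next, and control and doubly activated libraries overlapped. The fitted difference between lymphoma (313 ± 38.2 CPM, SD, n = 2) and doubly activated cells (0.172 ± 0.151 CPM) was 10.71 ± 0.22 (SE) on the log2 scale, or 1676-fold. The doubly activated value rests on 6 counts in all, and without doubly activated replicate 1 the log2 difference was 12.08. That shift is larger than the SE, which is derived from the test statistic and understates the uncertainty at so few counts. Against control, doubly activated cells differed by 0.06 ± 0.73, and by -1.32 without that library. Nearly all counts in lymphoma belonged to the protein-coding transcript Ccl22-201, with 7.3 counts of the processed transcript Ccl22-202 in lymphoma replicate 2.

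**Figure D1:**
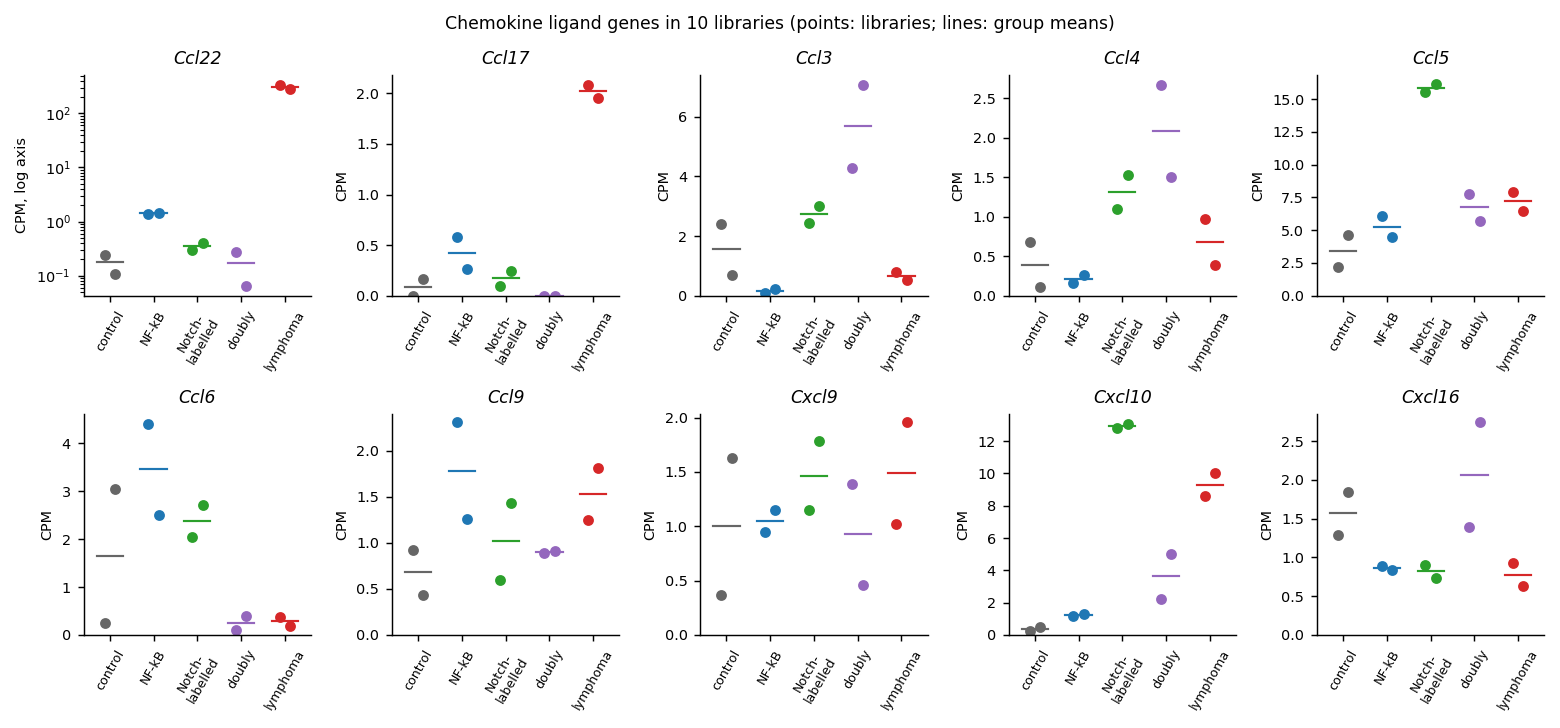
CPM of the 10 chemokine ligand genes in each library (points) with group means (lines), on linear axes from 0 except for Ccl22, whose axis is logarithmic. Ccl22 stands at 286 and 340 CPM in lymphoma and at or below 1.47 CPM in the other 8 libraries.

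Per transcript length, which allows genes to be compared, Ccl22 was the leading chemokine gene of the list in lymphoma at 174 ± 9.53 TPM, ahead of Ccl5 (22.8), Cxcl10 (12.3) and Ccl17 (6.81). It took 79.1% and 78.5% of the summed TPM of the 10 genes there and ranked 579 of the 15583 genes tested. In the other 8 libraries Ccl5 led, with 39.1% to 64.0% of the summed TPM, and Ccl22 gave 0.0783% to 3.56%. Without Ccl22 the list summed to 23.9 and 24.0 CPM in lymphoma, next to 20.8 and 23.8 CPM in doubly activated libraries. The list's total therefore differed between these groups mainly through 1 gene.

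In single activation, Ccl22 was 7.90-fold higher in NF-kB-activated (1.42 ± 0.0734 CPM, 54 counts) than in control libraries (0.177 ± 0.0970 CPM, 6 counts), a log2 difference of 2.98 ± 0.44. Without control replicate 1 this difference was 3.62. In doubly activated libraries, which carry the NIK allele too, Ccl22 was lower than in NF-kB-activated libraries by a log2 difference of -2.93 ± 0.44, and -4.31 without doubly activated replicate 1. The NF-kB-activated libraries did not overlap with control or doubly activated libraries. The Notch-labelled libraries (0.348 ± 0.0677 CPM, 14 counts) lay above both, at a log2 difference from control of 0.98 ± 0.60, or 1.61 without control replicate 1.

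Ccl17 followed the same order at levels near the limit of the depth. It was at 2.08 and 1.96 CPM in lymphoma (85 counts), without a count in either doubly activated library, at 0.577 and 0.262 CPM in NF-kB-activated (16 counts), 0.1000 and 0.247 CPM in Notch-labelled (7 counts) and 0 and 0.163 CPM in control libraries (3 counts). Lymphoma lay above all other libraries, and NF-kB-activated libraries above all but the lymphoma libraries. Set against 3 counts over the doubly activated group, lymphoma was at least 22.4-fold higher and NF-kB-activated cells at least 4.65-fold higher. The ratio of NF-kB-activated to control was 4.84 with an exact 95% interval for counting error of 1.39 to 25.9.

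Among the chemokine ligands outside the list, 31 were looked for, 30 had summed transcripts and 10 had enough counts to be tested. One of them, Cx3cl1, encodes the membrane-bound ligand of CX3CR1 and lies between Ccl22 and Ccl17. Cx3cl1 was at 7.91 and 6.79 CPM in lymphoma, without a count in control and doubly activated libraries, at 0.524 and 0.838 CPM with NF-kB activation and 2.85 and 2.77 CPM for Notch-labelled libraries. As for Ccl22 and Ccl17, lymphoma was highest and NF-kB-activated libraries lay above control and doubly activated ones, while Notch-labelled libraries were higher than NF-kB-activated ones. Cx3cl1 rose in lymphoma against doubly activated cells, at least 81.6-fold by the same floor (edgeR, adjusted p = 2.97e-06), and this was the only call among the 10 ligands, beside 51.3% of all genes called in that comparison. It was also at least 7.87-fold higher in NF-kB-activated than in control libraries (adjusted p = 0.00174) and at least 7.55-fold lower in doubly activated than in NF-kB-activated libraries (adjusted p = 0.00304).

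The genes around this cluster were then examined within 150 kb on either side of Ccl22 and Ccl17, a window chosen after these values were seen. Of 12 tested genes in it outside the list, 2 rose in lymphoma against doubly activated cells and 2 fell. Over all genes 26.1% were called higher and 25.2% lower in this comparison. Beside Cx3cl1, Coq9, a gene of coenzyme Q synthesis, rose from 37.0 ± 2.03 to 62.1 ± 7.003 CPM (log2 difference 0.75 ± 0.10, adjusted p = 7.11e-05). Coq9, Dok4 and Arl2bp are named after their values were seen. Dok4, a docking protein gene, fell from 3.39 ± 0.939 to 1.21 ± 0.0134 CPM (-1.48 ± 0.35, adjusted p = 0.00377), and Arl2bp, which encodes a binding partner of the GTPase ARL2, fell by 0.30 ± 0.09 on the log2 scale (adjusted p = 0.0121). The 3 chemokine genes stood next to each other, with no other tested gene between them, and every other fitted difference in the window lay between -1.55 and 0.75.

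**Figure D2:**
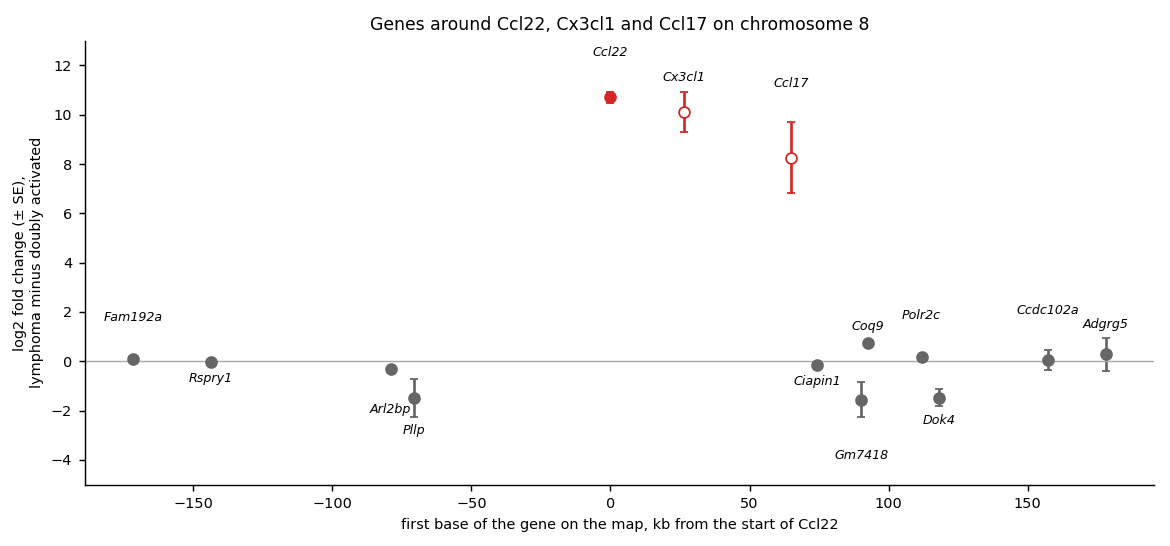
Fitted log2 fold change ± SE of lymphoma against doubly activated libraries for the 14 tested genes around Ccl22, by distance of the gene's first base on the map from that of Ccl22. Ccl22, Cx3cl1 and Ccl17 (red) lie at 8.25 or more and the other genes at 0.75 or less; open circles mark genes without a count in doubly activated libraries, whose fitted values depend on the prior count.

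The genes whose pattern over the 10 libraries was most like that of Ccl22 were found by the root mean square difference of centred log2 CPM among 10848 genes. These were Pde6a (1.45), Nme9 (1.49), Slc9a3r2 (1.51), Prrt2 (1.55) and Inhbe (1.65), against 3.88 for a flat profile. Pde6a, a phosphodiesterase gene of photoreceptors, was at 385 and 351 CPM in lymphoma and at 0.131 to 2.77 CPM elsewhere. Slc9a3r2 was at 68.6 and 60.8 CPM in lymphoma and at 0.0544 to 2.05 CPM elsewhere. All 5 were at or below 2.77 CPM outside lymphoma, and of these 5 only Slc9a3r2 had both NF-kB-activated libraries above both control and both doubly activated libraries. The nearest genes to Ccl17 by the same measure were Acsbg1 (0.53), Tnfsf8 (0.56) and Slc11a1 (0.61), each also highest in lymphoma, against 1.55 for a flat profile.

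Ccl3 and Ccl4, which lie 13228 bases apart on chromosome 11 (chr11:83647844-83649355, minus strand, and chr11:83662584-83664683, plus strand), had another pattern with their highest levels in doubly activated cells. Ccl3 was at 4.29 and 7.07 CPM in doubly activated libraries, 2.40 and 0.707 CPM in control, 0.105 and 0.209 CPM in NF-kB-activated, 2.45 and 3.02 CPM in Notch-labelled and 0.786 and 0.537 CPM in lymphoma libraries. Both doubly activated libraries lay above all others, and both NF-kB-activated libraries below all others. Ccl3 differed between doubly activated and NF-kB-activated cells by 5.11 ± 0.69 on the log2 scale, which is 34.6-fold, between NF-kB-activated and control cells by -3.24 ± 0.71, and between lymphoma and doubly activated cells by -3.08 ± 0.57. Without control replicate 1, the library with the higher control level, the second of these was -2.13. Differences from control were 0.83 ± 0.53 in Notch-labelled and 1.88 ± 0.53 in doubly activated cells, and 1.93 and 2.99 without that library.

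Ccl4 was at 2.67 and 1.51 CPM in doubly activated libraries, 0.677 and 0.109 CPM in control, 0.157 and 0.262 CPM in NF-kB-activated, 1.10 and 1.53 CPM in Notch-labelled and 0.971 and 0.391 CPM in lymphoma libraries. Doubly activated libraries lay above control, NF-kB-activated and lymphoma libraries but overlapped with Notch-labelled ones. The log2 difference of doubly activated from NF-kB-activated cells was 3.28 ± 0.81 and that of lymphoma from doubly activated cells -1.61 ± 0.70. Without lymphoma replicate 1 the latter was -2.40. The NF-kB-activated difference from control was -0.85 ± 0.90 and turned to 0.90 without control replicate 1, so its direction depended on that library. Notch-labelled and doubly activated cells differed from control by 1.76 ± 0.76 and 2.43 ± 0.76, and by 3.51 and 4.19 without it. Ccl3 was thus opposite to Ccl22 in these comparisons, lower in NF-kB-activated than control cells and lower in lymphoma than in doubly activated cells. The profiles nearest to Ccl3 were those of Dyrk3 (0.71), Srgap3 (0.77) and the transcription factor gene Klf4 (0.81), against 1.59 for a flat profile. Those nearest to Ccl4 were Myc (0.60), Bst1 (0.63) and Dyrk3 (0.64), against 1.17 for a flat profile. Myc, the proto-oncogene, was at 496 and 747 CPM in doubly activated libraries and 96.8 to 287 CPM in the other 8.

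Cxcl10 and Ccl5 were highest in the Notch-labelled libraries. Cxcl10 (chr5:92346638-92348889, minus strand) lies 18558 bases from Cxcl9. Its window, at chr5:92348890-92349139 on the minus strand, is shown because it holds a match to the kappaB consensus and one to the interferon-stimulated response element. Capitals mark the core of that element (-213 to -204) and kappaB consensus matches (-159 to -150, and overlapping ones within -104 to -94, which also hold GGGACTT). The core was in 2.98% of the 32851 promoters.
Cxcl10: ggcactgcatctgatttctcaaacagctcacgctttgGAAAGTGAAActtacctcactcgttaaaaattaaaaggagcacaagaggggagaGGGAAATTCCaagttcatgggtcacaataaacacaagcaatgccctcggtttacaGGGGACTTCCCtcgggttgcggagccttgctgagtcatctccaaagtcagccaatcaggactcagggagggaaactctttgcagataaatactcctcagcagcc

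Cxcl10 was at 12.8 and 13.1 CPM in Notch-labelled libraries, 0.246 and 0.490 CPM in control, 1.21 and 1.31 CPM in NF-kB-activated, 2.23 and 5.04 CPM in doubly activated and 8.60 and 10.02 CPM in lymphoma libraries. No group overlapped with another, and the order was control, NF-kB-activated, doubly activated, lymphoma and Notch-labelled. Differences from control on the log2 scale were 1.73 ± 0.50 in NF-kB-activated, 5.09 ± 0.45 in Notch-labelled and 3.25 ± 0.46 in doubly activated cells, comparisons that share the control libraries. Without control replicate 2 the first was 2.33, and without doubly activated replicate 2 the third was 2.56. Doubly activated cells differed from NF-kB-activated cells by 1.51 ± 0.39 and lymphoma from doubly activated cells by 1.37 ± 0.34, which became 0.82 and 2.06 without doubly activated replicate 2. Cxcl10 lies inside Art3 on the opposite strand, and an exon of an Art3 transcript overlaps its end. Art3 was at 7.55 and 6.13 CPM in Notch-labelled and 21.1 and 20.6 CPM in lymphoma libraries. In control it was at 0.492 and 0.272 CPM, in NF-kB-activated at 2.83 and 4.45 CPM and in doubly activated libraries at 1.34 and 1.505 CPM. The strand used in counting was not stated, so reads of the 2 genes may not be told apart where they overlap. The nearest profiles to Cxcl10 were Mvb12b (0.36), Grk3 (0.49) and Unc93a (0.60), against 1.81 for a flat profile. Mvb12b was at 71.2 and 61.6 CPM in Notch-labelled, 75.0 and 72.0 CPM in lymphoma and 1.85 and 2.29 CPM in control libraries.

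Ccl5, at chr11:83525778-83530518 on the minus strand, was at 15.5 and 16.2 CPM in Notch-labelled libraries, 2.15 and 4.62 CPM in control, 6.08 and 4.45 CPM in NF-kB-activated, 7.79 and 5.69 CPM in doubly activated and 7.91 and 6.50 CPM in lymphoma libraries. Notch-labelled libraries were above all others, doubly activated libraries lay above control, and lymphoma libraries above control and NF-kB-activated ones. The log2 difference from control was 2.21 ± 0.32 in Notch-labelled cells and 2.84 without control replicate 2. It was 0.63 ± 0.33 with NF-kB activation and 0.99 ± 0.33 in doubly activated cells, and 1.29 and 1.64 without that library. Doubly activated and NF-kB-activated cells differed by 0.36 ± 0.32 and lymphoma and doubly activated cells by 0.09 ± 0.31, each near its SE. CCL5 is abundant in T and NK cells, and 11 of 18 tested markers of these cells rose and 1 fell in Notch-labelled against control libraries (edgeR), where 63.7% of all genes were called. The summed level of 19 such markers was 490 and 505 CPM in Notch-labelled and 105 and 121 CPM in control libraries, of which Thy1 gave 257 and 248 CPM. Trbc2, a T cell receptor gene, was at 34.4 and 38.6 CPM against 5.97 and 6.47 CPM. Among the 6 markers not called, Trac, Cd3d and Cd28 averaged 1.19, 3.25 and 1.59 CPM against 1.60, 4.13 and 2.93 CPM in control. Cd4 was the marker that fell, from 5.15 to 2.53 CPM, a call lost with library size alone. The part of T and NK cells in the level of Ccl5 was not tested. Tspan3 (0.22), H2-Bl (0.25) and Rcn1 (0.31) had the nearest profiles, against 0.80 for a flat one.

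Other chemokine genes were also highest in the Notch-labelled libraries. Ccl7, Cxcl1 and Cxcl14 had counts there and in no other library, and Ccl2 was at or below 0.139 CPM elsewhere. Of the 10 tested ligands outside the list, Ccl2, Ccl7, Cxcl1, Cxcl14 and Cx3cl1 rose there against control. Ccl2, Ccl7, Cxcl1 and Cxcl14 had at most 3 counts in any other library and passed the filter on low counts through this group. The direction of their difference was thus set by the filter, and their adjusted p-values describe its size and add no support. Their number is not read against that of all genes. Ccl2, which attracts monocytes, was at 7.40 and 8.999 CPM against no count in control, at least 94.7-fold (adjusted p = 5.81e-06). Cxcl1, which attracts neutrophils, was at 5.75 and 6.82 CPM, at least 72.6-fold (adjusted p = 4.04e-05). Ccl7 was at least 39.6-fold (adjusted p = 2.63e-04), Cxcl14 at least 7.75-fold (adjusted p = 0.00878) and Cx3cl1 at least 32.4-fold higher (adjusted p = 9.50e-06). With DESeq2, Ccl7 (adjusted p = 0.122) and Cxcl14 (adjusted p = 0.133) did not pass. Stromal genes moved with them. Col1a2, a fibrillar collagen gene of fibroblasts, was at 391 and 534 CPM in Notch-labelled libraries and at or below 0.870 CPM in the other 8. Of 9 tested stromal and endothelial markers 7 rose and 1 fell, beside 34.2% of all genes called higher and 29.5% lower. Of the 11 listed, 9 averaged above 1 CPM in Notch-labelled libraries and 3 in each other group. Markers that passed the filter through the Notch-labelled group had their direction set by it. Their number is therefore not read against that of all genes either. The summed level of the 11 markers was 813 and 1034 CPM against 307 and 315 CPM in control, where Pecam1 averaged 304 CPM, and Lyve1 was at 0 in every library. Their part in these chemokine levels was not tested.

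**Figure D3:**
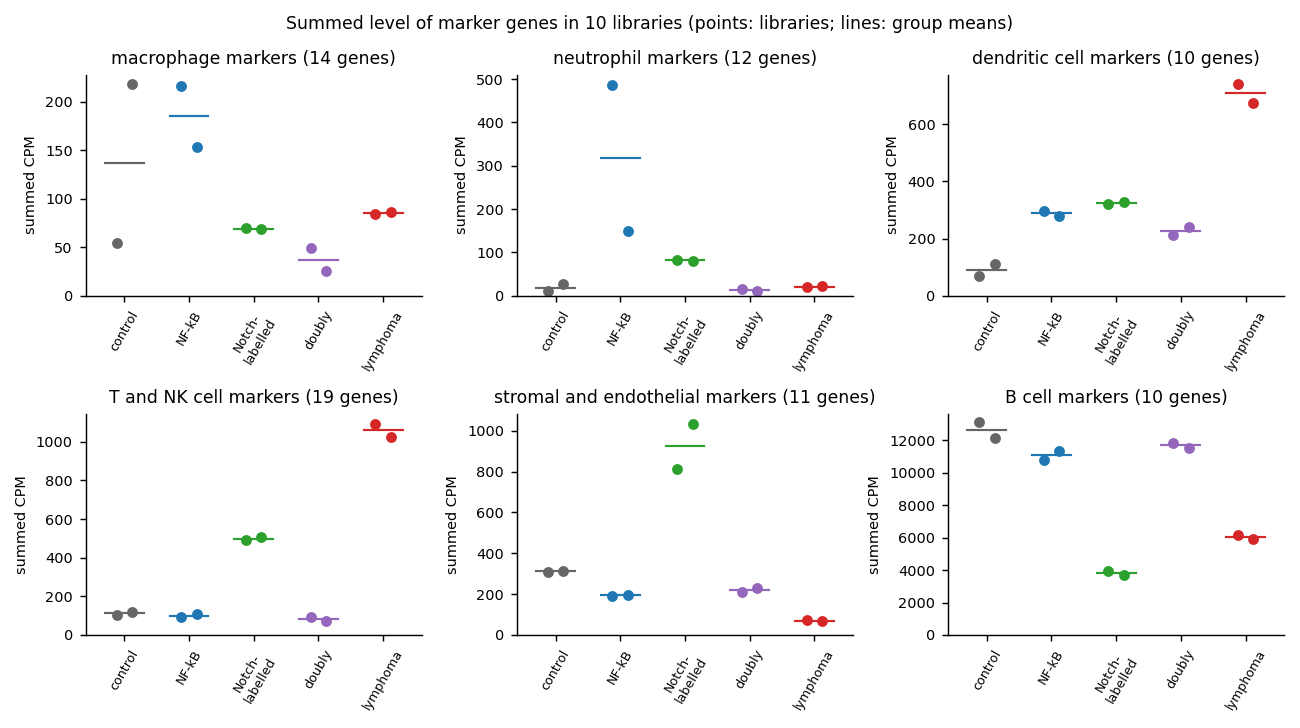
Summed CPM of marker lists of other cell types and of B cells in each library (points) with group means (lines), on linear axes from 0. Stromal markers reach 813 and 1034 CPM in Notch-labelled libraries, neutrophil markers 487 and 150 CPM in NF-kB-activated libraries, and dendritic cell markers 741 and 676 CPM in lymphoma libraries.

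Ccl6 and Ccl9, the neighbouring myeloid chemokine genes (chr11:83587882-83593087 and chr11:83572919-83578636, both on the minus strand, 9245 bases apart), were highest on average in NF-kB-activated cells. Ccl6 was at 4.40 and 2.51 CPM there, 0.246 and 3.05 CPM in control, 2.05 and 2.72 CPM in Notch-labelled, 0.111 and 0.392 CPM in doubly activated and 0.370 and 0.196 CPM in lymphoma libraries. The control libraries lay far apart, replicate 1 at the level of doubly activated and lymphoma libraries and replicate 2 at that of NF-kB-activated ones, and doubly activated and lymphoma libraries lay below NF-kB-activated and Notch-labelled ones. Doubly activated cells were 13.8-fold lower than NF-kB-activated cells (log2 difference -3.79 ± 1.004, and -4.88 without doubly activated replicate 2). The doubly activated difference from control was -2.74 ± 1.03 but -0.02 without control replicate 2. The differences from control of 1.05 ± 0.80 with NF-kB activation and 0.52 ± 0.81 for Notch-labelled cells became 3.78 and 3.21 without that library. Part of the Ccl6 counts belonged to a transcript with a retained intron, 46 of the counts in NF-kB-activated replicate 1 beside 38 of the coding transcript. A gene annotated on the opposite strand, E230016K23Rik, spans Ccl6. It had no transcripts among those summed, so its level in these libraries is not known.

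Markers of myeloid cells varied in the same libraries. The summed level of 14 macrophage markers was 54.6 and 219 CPM in control, 217 and 153 CPM in NF-kB-activated, 69.9 and 68.5 CPM in Notch-labelled, 49.4 and 24.99 CPM in doubly activated and 84.6 and 86.5 CPM in lymphoma libraries. Of 13 tested, 5 fell in doubly activated against NF-kB-activated cells, among 13.9% of all genes, and each of these calls was lost without doubly activated replicate 2. Adgre1, the F4/80 gene of macrophages, fell from 10.1 ± 0.820 to 1.95 ± 0.629 CPM (adjusted p = 0.00594, and 0.0847 without doubly activated replicate 2). The 12 neutrophil markers summed to 487 and 150 CPM in NF-kB-activated, 9.72 and 26.9 CPM in control and 16.4 and 10.5 CPM in doubly activated libraries. In Notch-labelled libraries they summed to 82.4 and 80.9 CPM and in lymphoma to 20.4 and 21.6 CPM. Against control 7 rose in NF-kB-activated cells (15.3% of all genes called), and 5 rose and 1 fell in Notch-labelled cells (63.7%). Between NF-kB-activated and doubly activated cells 10 of 12 fell, beside 7.28% of all genes called lower, or 2 when these groups were fitted alone. Of the 12, 11 averaged above 1 CPM in NF-kB-activated and 1 in doubly activated libraries, so the filter may have set this direction. Their part in the level of Ccl6 was not tested. The nearest profiles to Ccl6 were Tgfbi (0.64), Csf3r (0.74), which encodes the receptor of granulocyte colony-stimulating factor, and Sirpa (0.78), against 1.59 for a flat profile.

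Ccl9 was at 2.31 and 1.26 CPM in NF-kB-activated, 0.922 and 0.435 CPM in control, 0.600 and 1.43 CPM in Notch-labelled, 0.891 and 0.916 CPM in doubly activated and 1.25 and 1.81 CPM in lymphoma libraries. NF-kB-activated libraries lay above control and doubly activated libraries but overlapped with lymphoma and Notch-labelled ones. The log2 difference from control was 1.40 ± 0.60 in NF-kB-activated cells and 2.02 without control replicate 1. Both lymphoma libraries lay above the doubly activated ones (log2 difference 0.75 ± 0.58). Close profiles were those of Arhgef12 (0.33) and Rgmb (0.38), against 0.61 for a flat one.

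Cxcl9 and Cxcl16 were at or below 2.75 CPM in every library. Cxcl9 (chr5:92321347-92328079, minus strand) was at 0.369 and 1.63 CPM in control, 0.944 and 1.15 CPM in NF-kB-activated, 1.15 and 1.78 CPM in Notch-labelled, 1.39 and 0.458 CPM in doubly activated and 1.02 and 1.96 CPM in lymphoma libraries. All groups overlapped with control, so the order of Cxcl10 was not seen in its neighbour. Its log2 difference from control in Notch-labelled cells was 0.53 ± 0.69, or 1.93 without control replicate 2, and in doubly activated cells -0.11 ± 0.72, which turned to 1.33 without control replicate 2. The transmembrane ligand gene Cxcl16 (chr11:70453983-70459984, minus strand) was at 1.29 and 1.85 CPM in control, 0.891 and 0.838 CPM in NF-kB-activated, 0.900 and 0.742 CPM in Notch-labelled, 1.39 and 2.75 CPM in doubly activated and 0.925 and 0.635 CPM in lymphoma libraries. Control and doubly activated libraries lay above all others. Zmynd15, on the opposite strand, overlaps the start of Cxcl16 and was at or below 0.707 CPM. Lymphoma differed from doubly activated cells by -1.39 ± 0.51 on the log2 scale. Jund (0.20), Klf11 (0.26) and Stk11ip (0.28) had the profiles nearest to Cxcl16, against 0.57 for a flat one, and Stard9 (0.43), Amacr (0.46) and Rab23 (0.47) those nearest to Cxcl9, against 0.67.

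**Figure D4:**
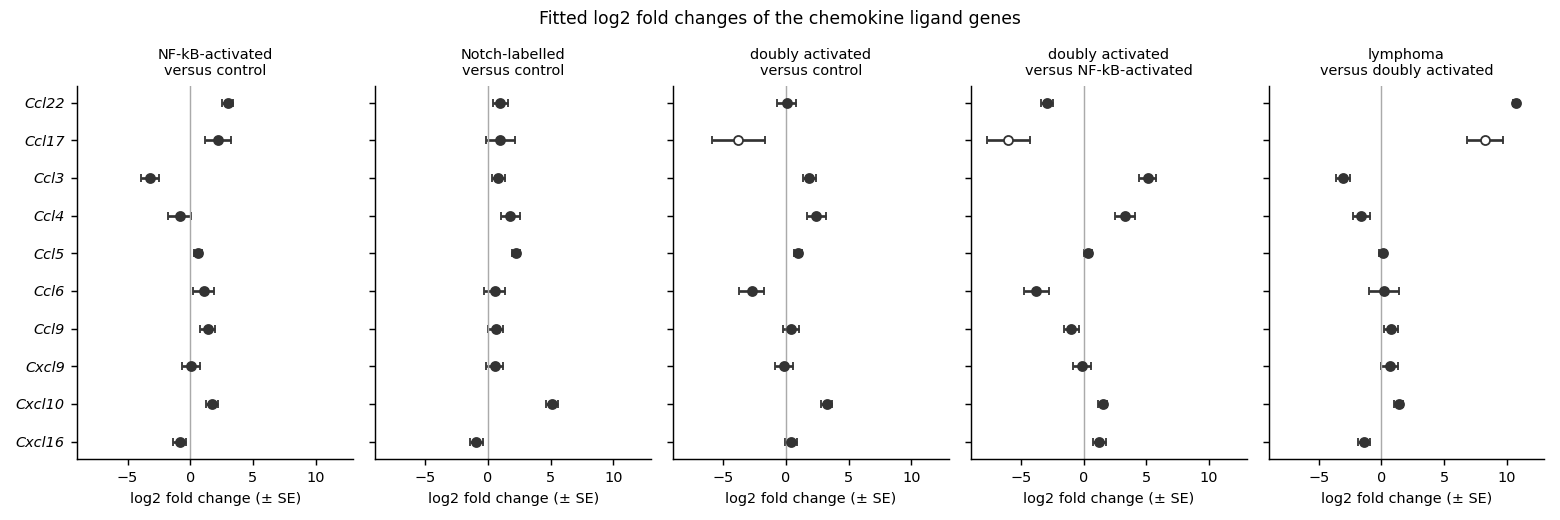
Fitted log2 fold change ± SE of the 10 chemokine ligand genes in 5 comparisons, each against its second group. Ccl22 stands at 10.71 in lymphoma against doubly activated cells and at 2.98 in NF-kB-activated against control cells, where Ccl3 stands at -3.24; open circles mark a group without a count, for which the fitted value depends on the prior count.

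Over the list, the groups did not overlap for 6 of the 10 genes in NF-kB-activated against control libraries, 4 higher and 2 lower, beside 52.6% of all genes tested (27% higher and 25.6% lower). For Notch-labelled against control this held for 5 higher and 1 lower, beside 82.9% of all genes (44.4% and 38.4%), and for doubly activated against control for 4, all higher, beside 55.3% (28.7% and 26.6%). Against NF-kB-activated libraries 4 were higher and 4 lower in doubly activated libraries, beside 59.8% of all genes (29.5% and 30.3%), and in lymphoma against doubly activated libraries 4 were higher and 3 lower, beside 74.6% (38.4% and 36.1%). The median log2 difference of the 10 genes was 0.84, 0.90, 0.40, 0.10 and 0.44 in these 5 comparisons in turn, beside 0.00, 0.07, 0.00, 0.00 and 0.01 over all genes. With Ccl17 at its bound, or left out where no fold can be given, the doubly activated median against control was 0.42 and the others did not move. The comparisons share groups, and the genes were chosen with these values known, so nothing is read from these counts.

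The receptors of these ligands were examined from a separate list, of which 6 tested genes are described. Ccr4, the receptor of CCL22 and CCL17, stayed low. It was at 0.308 and 0.381 CPM in control, 0.839 and 0.629 CPM in NF-kB-activated, 0.200 and 0.346 CPM in Notch-labelled, 0.557 and 0.392 CPM in doubly activated and 0.370 and 0.684 CPM in lymphoma libraries. In lymphoma against doubly activated cells its log2 difference was 0.14 ± 0.67 (adjusted p = 0.891), so a change was not detectable at this depth where Ccl22 differed 1676-fold.

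Ccr1, which binds CCL3, CCL5, CCL6 and CCL9, passed the test in all 5 comparisons. It rose from 10.5 ± 2.01 CPM in control to 51.1 ± 3.46 CPM in NF-kB-activated cells (log2 difference 2.29 ± 0.24, adjusted p = 1.70e-04) and fell to 0.870 ± 0.0286 CPM in Notch-labelled cells (-3.58 ± 0.36, adjusted p = 1.35e-05). The doubly activated libraries stood between, at 24.4 ± 9.86 CPM, above control (adjusted p = 0.00647, and 0.0632 without control replicate 2) and below NF-kB-activated cells (adjusted p = 0.0142, but 0.0728 without NF-kB-activated replicate 2 and 0.107 with these groups fitted alone). It rose again in lymphoma to 50.1 ± 3.33 CPM (log2 difference 1.03 ± 0.23, adjusted p = 0.00373). NF-kB-activated and lymphoma libraries thus had similar high levels of Ccr1, while their Ccl22 levels were 1.42 and 313 CPM.

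Ackr2, a scavenger of inflammatory CC chemokines including CCL22 and CCL17, fell from 40.1 ± 11.0 to 12.2 ± 2.27 CPM in NF-kB-activated cells (log2 difference -1.71 ± 0.22, adjusted p = 6.62e-04) and rose to 77.5 ± 7.27 CPM in Notch-labelled cells (0.96 ± 0.20, adjusted p = 0.00231). It was at 25 ± 5.35 CPM in doubly activated and 38.7 ± 3.17 CPM in lymphoma cells (adjusted p = 0.0292 between them, and 0.191 without doubly activated replicate 1, 0.143 without lymphoma replicate 1 and 0.0626 without lymphoma replicate 2). Ackr2 and Ccr1 therefore moved in opposite directions in both single activations.

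Cxcr3, the receptor of CXCL9 and CXCL10, fell from 6.23 ± 2.20 CPM in control to 1.57 ± 0.592 CPM in NF-kB-activated cells (log2 difference -1.98 ± 0.43, adjusted p = 0.00767) and 1.59 ± 0.670 CPM in doubly activated cells (-1.96 ± 0.43, adjusted p = 0.00712). The first call was lost without control replicate 2 (adjusted p = 0.0543) or NF-kB-activated replicate 1 (0.0895), the second without control replicate 2 (0.0542) or doubly activated replicate 2 (0.0867). Cxcr3 was at 2.91 ± 0.409 CPM in Notch-labelled cells and 0.666 ± 0.0258 CPM in lymphoma, lower than control and doubly activated cells in turn (adjusted p = 0.034 and 0.045). Of the 16 and 17 alternatives of these calls 6 and 8 did not pass, the highest adjusted p being 0.221 without control replicate 2 and 0.347 without doubly activated replicate 1. Where Cxcr3 was lower than in control, Cxcl10 was higher, in NF-kB-activated, Notch-labelled and doubly activated cells.

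Ccr3 and Cxcr6 were at low levels. Ccr3, an eosinophil receptor, fell from 2.82 ± 2.78 CPM in control to 0.0250 ± 0.0353 CPM in Notch-labelled cells (adjusted p = 0.00410) and 0.144 ± 0.111 CPM in doubly activated cells (adjusted p = 0.0408, and 0.256 without control replicate 2). Cxcr6, the receptor of CXCL16, was at 0.786 to 1.61 CPM on average, with a log2 difference of lymphoma from doubly activated cells of 0.34 ± 0.52 (adjusted p = 0.612).

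**Figure D5:**
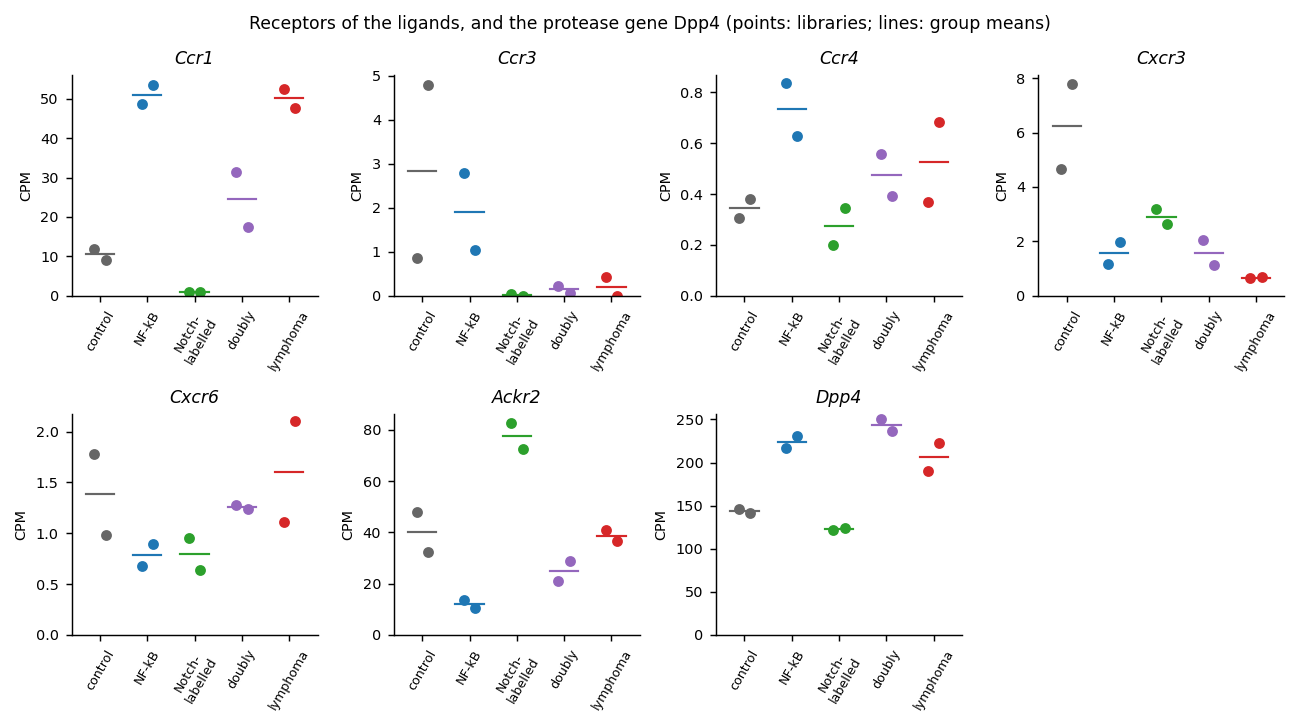
CPM of 6 receptor genes and of Dpp4 in each library (points) with group means (lines), on linear axes from 0. Ccr1 is at 47.7 to 53.5 CPM in NF-kB-activated and lymphoma libraries and below 1 CPM in both Notch-labelled ones, while Ccr4 stays below 1 CPM in all 10.

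Genes that process these ligands were expressed in all groups. Dpp4 encodes a protease that trims CCL22, CCL5 and CXCL10, among others. It rose from 144 ± 3.44 CPM in control to 224 ± 9.30 CPM in NF-kB-activated (log2 difference 0.64 ± 0.09, adjusted p = 2.90e-04) and 243 ± 9.41 CPM in doubly activated cells (0.76 ± 0.09, adjusted p = 5.96e-05). In lymphoma it was at 206 ± 22.96 CPM, a log2 difference from doubly activated cells of -0.24 ± 0.09 (adjusted p = 0.0338, lost in 7 of 17 alternatives and 0.245 without lymphoma replicate 1). Adam10 and Adam17, whose products shed CXCL16 and CX3CL1, fell in Notch-labelled cells by 0.35 ± 0.08 (adjusted p = 0.00266) and by 0.42 ± 0.09 (adjusted p = 8.39e-04) on the log2 scale. Dpp4 also fell there, by 0.23 ± 0.09 (adjusted p = 0.0364, lost in 6 of 16 alternatives and 0.271 with library size alone). Adam10 fell by 0.31 ± 0.08 in doubly activated against control cells (adjusted p = 0.0211, but 0.0634 without control replicate 1 and 0.214 without doubly activated replicate 2). It was higher by 0.26 ± 0.08 in lymphoma than in doubly activated cells (adjusted p = 0.0221, but 0.202 without doubly activated replicate 2 and 0.13 without lymphoma replicate 2).

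Most of the listed NF-kB targets, unlike Ccl22, were lower in lymphoma than in doubly activated cells. Of 13 such genes outside the list, 10 rose and 1 fell in NF-kB-activated against control cells, with a median log2 difference of 0.60, where 15.3% of all genes were called. In doubly activated against control cells 9 rose and 2 fell (median 0.61, 19.8% of all genes called). In lymphoma against doubly activated cells 1 rose and 10 fell (median -0.80, 51.3% of all genes called). Traf1, an adaptor of TNF receptors, rose from 71.6 ± 4.45 CPM in control to 229 ± 0.922 CPM in NF-kB-activated (adjusted p = 7.65e-08) and 294 ± 18.0 CPM in doubly activated cells (adjusted p = 1.25e-08), and fell to 97.3 ± 5.67 CPM in lymphoma (adjusted p = 1.24e-08). Lta, the lymphotoxin alpha gene, fell from 42.3 ± 1.31 to 9.76 ± 1.71 CPM in lymphoma (adjusted p = 8.79e-08). The gene that rose was Ebi3, a cytokine subunit gene of the IL-12 family, from 10.1 ± 0.470 to 35.4 ± 2.09 CPM (adjusted p = 2.46e-07).

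The transcription factors listed for these chemokine genes numbered 20, all tested. In doubly activated against control cells 5 rose and none fell, beside 10.5% of all genes called higher and 9.3% lower. The other 15, with Nfkb1, Rela and Rel, did not pass. Among those that rose was Nfkb2, which encodes the p100 precursor on which NIK acts, from 322 ± 47.2 to 668 ± 20.8 CPM (adjusted p = 8.60e-06). Irf4 rose from 220 ± 31.5 to 496 ± 98.4 CPM (adjusted p = 1.39e-04). In lymphoma against doubly activated cells 2 rose and 12 fell, with a median log2 difference of -0.53, beside 51.3% of all genes called. Nfkb2 fell to 296 ± 8.37 CPM (log2 difference -1.17 ± 0.09, adjusted p = 5.55e-07). Rel and Relb, further NF-kB subunits, were among those that fell, and like Irf4 and Batf in this comparison they are named after their values were seen. Stat6, the factor of interleukin 4 signalling, fell from 295 ± 3.33 to 151 ± 1.06 CPM (adjusted p = 1.72e-06), and Stat2, of interferon signalling, from 223 ± 4.39 to 92.9 ± 2.58 CPM (adjusted p = 1.38e-07). The genes that rose were Irf4, a factor of B cell differentiation, to 1134 ± 92.3 CPM (adjusted p = 2.57e-05), and Batf. Ccl22 was highest in lymphoma, where most listed NF-kB targets and 12 of these 20 factors were lower than in doubly activated cells. Whether these genes bear on the level of Ccl22 was not tested.

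Interferon-response genes were compared because CXCL9 and CXCL10 belong to that programme. Of 19 tested, 14 rose and 1 fell in Notch-labelled against control cells (median log2 difference 0.70), beside 63.7% of all genes called, 6 rose and 1 fell in NF-kB-activated cells (median 0.22, 15.3% of all genes), and 10 rose in doubly activated cells (median 0.43, 19.8% of all genes). Gbp2, a guanylate-binding protein gene, rose from 25 ± 1.55 CPM in control to 287 ± 6.56 CPM in Notch-labelled (adjusted p = 4.86e-10) and 60.7 ± 0.612 CPM in doubly activated cells (adjusted p = 7.84e-06), and to 137 ± 1.99 CPM in lymphoma against doubly activated cells (adjusted p = 1.62e-06). These groups stood in the order of Cxcl10. The list did not move as one in lymphoma, where 6 rose and 8 fell (median -0.15, 51.3% of all genes called). Oas1a fell from 49.1 ± 0.197 to 13.9 ± 0.605 CPM (adjusted p = 6.42e-08).

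Markers of dendritic cells and macrophages, known sources of CCL22 and CCL17, are given for lymphoma and, for dendritic cells, also for NF-kB-activated libraries. Of 8 tested dendritic cell markers 3 rose and 1 fell in lymphoma against doubly activated cells, beside 51.3% of all genes called. The 10 markers summed to 741 and 676 CPM in lymphoma, 213 and 240 CPM in doubly activated, 321 and 329 CPM in Notch-labelled, 297 and 280 CPM in NF-kB-activated and 69.5 and 112 CPM in control libraries. Fscn1, an actin-bundling protein gene named here after its values were seen, gave 522 and 459 CPM of the lymphoma sum, and its call was lost without doubly activated replicate 1 (adjusted p = 0.00709, and 0.0531 without it). Itgax, the CD11c gene, rose from 8.54 ± 3.67 to 90.6 ± 3.41 CPM (adjusted p = 0.00164) and Cst3 from 47.2 ± 3.81 to 101 ± 7.74 CPM (adjusted p = 9.93e-05). Zbtb46, a transcription factor gene of conventional dendritic cells, fell from 28.8 ± 1.96 to 15.2 ± 1.16 CPM (adjusted p = 0.00107), and Clec9a, Cd209a and Clec10a were at 0 in both lymphoma libraries. In NF-kB-activated against control cells 3 of the 8 rose and none fell, beside 15.3% of all genes called. There Zbtb46 rose from 2.38 ± 1.10 to 40.7 ± 1.65 CPM (adjusted p = 1.75e-07) and Flt3 from 4.65 ± 1.88 to 14.3 ± 3.53 CPM (adjusted p = 0.00305). Fscn1 rose from 3.04 ± 3.08 to 156 ± 8.31 CPM (adjusted p = 0.00105, and 0.0664 with these groups fitted alone). The part of dendritic cells in Ccl22 and Ccl17 levels was not tested.

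Of 13 tested macrophage markers 3 rose and 1 fell in lymphoma, beside 51.3% of all genes called. Cd68 rose from 9.68 ± 1.75 to 60.6 ± 0.735 CPM (adjusted p = 2.75e-05) and gave most of the lymphoma sum of 84.6 and 86.5 CPM. Mrc1, a mannose receptor gene, rose from 0.517 ± 0.101 to 2.75 ± 0.297 CPM (adjusted p = 0.0203) and Cd163, a scavenger receptor gene, from 0.0606 ± 0.00689 to 0.474 ± 0.0488 CPM (adjusted p = 0.0388), from 1 count in each doubly activated library. Both calls were lost without any 1 of the 4 compared libraries, with adjusted p from 0.0551 to 0.134 for Mrc1 and from 0.0788 to 0.156 for Cd163, whose DESeq2 value was 0.0523. Marco fell (adjusted p = 0.0232), but not without doubly activated replicate 2 (0.0839) or lymphoma replicate 1 (0.151). C1qb was at 6.04 ± 1.61 CPM against 1.63 ± 1.01 CPM (adjusted p = 0.107). Csf1r, the receptor gene that defines macrophages, was at 6.15 and 4.35 CPM in lymphoma and 6.63 and 3.40 CPM in doubly activated libraries, Vsig4 was at 0 and Fcgr1 at or below 0.0463 CPM in lymphoma. The 19 T and NK cell markers summed to 1094 and 1026 CPM in lymphoma and 92.9 and 70.7 CPM in doubly activated libraries, of which Thy1 gave 878.5 and 830.2 CPM in lymphoma and Cd8b1 180.9 and 162.4 CPM, while Cd3e, a T cell receptor subunit gene, was at 0.370 and 0.929 CPM. The part of other cells in its level was not tested.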

How the data were processed

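Total RNA of 10 libraries was quantified per transcript by the authors with kallisto 0.44.0, with the build mm10 named in the submitters' processing notes. The transcript release was not given in the sources used here, nor was strandedness. The deposited files hold estimated counts and TPM per transcript, per the file headers. TPM, an abundance per transcript length on a fixed total, was made by the authors from those estimated counts and transcript lengths.

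Of 88198 transcripts, 86031 were assigned to 30205 genes by GENCODE M21 identifiers, and the other 2167, with 1.09% to 1.38% of counts, were left out. Sums per gene of the estimated counts, rounded to whole numbers, and of TPM were used. Genes were filtered with filterByExpr of edgeR 4.0.16 in R 4.3.3 (minimum count 10, minimum total 15) and scaled by TMM. One robust quasi-likelihood model was fitted to all 5 groups, with 5 residual degrees of freedom, and p-values were adjusted by Benjamini-Hochberg over 15583 genes at 0.05. All adjusted p-values are from this edgeR model unless another tool is named. SE is the absolute log2 difference divided by the square root of the F statistic of its test. It was not estimated directly and can be too small where a group has few counts. With 2 libraries a group, the SD rests on 2 values. Depth of 16380889 to 23102081 estimated counts leaves several of the chemokine genes at a few counts, and a group without counts was set to 3 counts. The model was tested on simulated data.

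The 10 genes and all gene lists were chosen with earlier results of these data known. Named outside the 10 were, of each list and comparison, at most the 3 called genes with the smallest adjusted p, the receptors and processing genes, all called ligands, and the genes with the nearest profiles (5 for Ccl22, 3 for the others, reaching a mean of 5 CPM in some group). Defining markers of other cell types, and genes named after their values were seen, are the exceptions. Likeness of profiles is the root mean square difference of centred log2 CPM over 10 libraries. Promoters are from RefSeq for GRCm38.p6. Alternatives were other scalings, no filter, DESeq2 1.42.0, a replicate block, the compared groups alone and leaving out libraries. Python 3.11.15, pandas 2.3.3, numpy 2.4.6 and matplotlib 3.10.9 were used for tables and figures. One listed receptor gene and one gene with a near profile are not reported here.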

Additional observations from a re-analysis of the deposited data

How the results depend on the processing

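No called gene of the lists changed direction under the alternatives. Leaving out 1 library at a time gave 1435 to 2291 genes called in NF-kB-activated against control cells (2388 with all libraries), with 1497 and 1435 without NF-kB-activated replicates 1 and 2, 8353 to 10014 in Notch-labelled against control (9922), and 6473 to 8410 in lymphoma against doubly activated cells (7988). Doubly activated against control cells gave 1624 to 3081 (3090), the lowest without doubly activated replicate 2, and 1984 with the compared groups alone. Doubly activated against NF-kB-activated cells gave 725 to 2800 (2165), with 725 without doubly activated replicate 2 and 1067 and 975 without NF-kB-activated replicates 1 and 2. The cause was not tested. With the replicate block the 5 counts were 2100, 9621, 2794, 1764 and 7634, and the deviations of same-numbered libraries correlated at -0.118 to 0.107 over 10 pairs of groups, so the numbers give no pairing. The crossed block, added after seeing the data, gave 2277 and 2991 calls for NF-kB-activated and doubly activated against control cells. With library size alone, the share of calls that were higher fell from 53.1% to 41.7% in doubly activated against control and from 47.6% to 34% in doubly activated against NF-kB-activated cells, so the balance of the first turned from mostly higher to mostly lower, and the median of all genes in Notch-labelled against control cells was 0.18 in place of 0.07. Ranked by CPM in place of TPM, Ccl22 stood 8 (9 by TPM) and 9 (8) among the 10 genes in control replicates 1 and 2, 4 (6) and 3 (5) in NF-kB-activated replicates 1 and 2, and 9 (10) in Notch-labelled replicate 1. Of 50 fold changes of the 10 genes, 12 changed sign and 37 moved by over 1.5 times under some alternative, 35 of them by a left-out library. Depth limits the genes with a few counts, Ccl17 above all.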
